A study of Mus musculus with 2 samples.

Results

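TNF superfamily ligands are trimeric cytokines, most of them anchored in the cell membrane, by which immune cells instruct their neighbours. The 9 genes described here are Ltb, Lta, Tnf, Tnfsf4, Tnfsf9, Tnfsf10, Tnfsf12, Tnfsf13b and Cd70. They were taken as a list of named genes, chosen with earlier results of these data known. All 9 are among the 17751 genes of the raw transcript tables. Levels were followed in the clusters and in the library of each genotype of a CITE-seq study, which pairs single-cell transcript counts with antibody tags.

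Live MHCII+CD11c+ cells were sorted from spleens of female C57BL/6 mice aged 8 weeks. One group was wildtype (WT) and the other lacked Batf3 (Batf3-/-), a transcription factor that cDC1, the cross-presenting conventional dendritic cells, need in order to develop. T and B cells were depleted from both before sorting, the Batf3 deletion is germline and not restricted to dendritic cells, and several spleens were pooled for each genotype. The experiment was done once and gave 1 library per genotype, so genotypes were compared by size and counting error alone, without a test.

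Lymphotoxin-β, encoded by Ltb, anchors lymphotoxin-α (Lta) at the cell surface, and the heterotrimer engages the lymphotoxin-β receptor, which maintains lymphoid tissue architecture and splenic dendritic cells. Tnf encodes the inflammatory cytokine TNF, released from the membrane by shedding. OX40 ligand (Tnfsf4), 4-1BB ligand (Tnfsf9) and CD70 (Cd70) costimulate T cells, TRAIL (Tnfsf10) can trigger apoptosis through a death receptor, TWEAK (Tnfsf12) signals through Fn14, and BAFF (Tnfsf13b) sustains B cells.

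Ltb, Tnf and Lta are neighbours on mouse chromosome 17. In GENCODE M21 on GRCm38, Ltb spans chr17:35194439-35196320 on the plus strand, Tnf chr17:35199381-35202007 on the minus strand and Lta chr17:35203165-35205351 on the minus strand. The sequence immediately before these 3 gene starts is shown because the clustered genes had different cluster patterns in these cells. The bases are from RefSeq (GRCm38.p6), at chr17:35194257-35194438 (plus strand, 182 bases) for Ltb, chr17:35202008-35202257 (minus strand, 250 bases) for Tnf and chr17:35205352-35205601 (minus strand, 250 bases) for Lta. They read 5′ to 3′, and capitals mark a match to the NF-κB consensus.
Ltb: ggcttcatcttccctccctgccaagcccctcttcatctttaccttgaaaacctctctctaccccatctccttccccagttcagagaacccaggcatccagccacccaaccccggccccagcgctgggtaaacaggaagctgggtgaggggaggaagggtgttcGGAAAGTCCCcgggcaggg
Tnf: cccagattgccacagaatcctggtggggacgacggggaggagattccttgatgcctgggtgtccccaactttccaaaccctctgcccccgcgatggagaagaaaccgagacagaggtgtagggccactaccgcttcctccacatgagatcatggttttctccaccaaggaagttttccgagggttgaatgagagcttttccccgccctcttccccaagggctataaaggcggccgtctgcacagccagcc
Lta: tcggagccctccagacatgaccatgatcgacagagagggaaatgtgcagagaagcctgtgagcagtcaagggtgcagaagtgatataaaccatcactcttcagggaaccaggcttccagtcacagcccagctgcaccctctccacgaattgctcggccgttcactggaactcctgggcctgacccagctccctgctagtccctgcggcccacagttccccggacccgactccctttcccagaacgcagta
Both strands of the 250 bases before the RefSeq starts were searched for 3 motifs, which do not overlap one another in these windows. The NF-κB consensus was found in the Ltb window, 87 to 78 bases before the RefSeq start, which lies downstream of the GENCODE start at which the printed sequence ends, and 3.9% of 32851 promoter windows hold one. AP-1 (TGANTCA, in 6.75% of windows) was found in 1 Tnfsf13b window and PU.1 (GAGGAAGT, in 2.44%) in none. The promoter table holds 5 of the 9 genes, and Tnfsf4, Tnfsf9, Tnfsf12 and Cd70 were not searched. A match is a description of letters and not a binding site.

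The remaining ligands lie elsewhere. Tnfsf9 (chr17:57105325-57107757, plus strand) and Cd70 (chr17:57145997-57149777, minus strand) are also on chromosome 17, Tnfsf4 is at chr1:161395409-161418410 (plus), Tnfsf10 at chr3:27317028-27342427 (plus) and Tnfsf13b at chr8:10006467-10039072 (plus). Tnfsf12, at chr11:69686250-69695849 on the minus strand, shares exons with the read-through gene Tnfsfm13 on that strand, so its counts depend on how shared reads were assigned.

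The WT library held 12224 cells and 122530055 unique molecular identifiers (UMIs), and the Batf3-/- library 12119 cells and 114517073 UMIs, with medians of 8374.5 and 8516.0 UMIs per cell. Batf3 itself was at 206 CPM in the WT and 2.49 CPM in the Batf3-/- library, where CPM is a gene's UMIs per 1000000 UMIs of the same cells. The libraries had 56 cell barcodes in common. The clusters are those the authors deposited, numbered C0 to C19, and cluster names are the study's. They were built from the same transcripts, so differences between clusters are described and not tested. C17 and C18 held 1 and 2 Batf3-/- cells and were given no ratio, and C4 and C12 held 31 Batf3-/- cells each.

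The 9 genes covered a wide range of depth. Over both libraries Ltb gave 119741 UMIs, Tnf 9445, Tnfsf9 3173 and Lta 1104. Tnfsf12 gave 526, Tnfsf10 356, Cd70 231, Tnfsf13b 229 and Tnfsf4 only 71. Only Ltb, Tnf and Tnfsf9 could therefore be compared between genotypes in most clusters. A ratio was formed where at least 10 UMIs were expected in each library and each held at least 20 cells. Brackets give 95% intervals, exact Poisson for levels, from the exact binomial split of the UMIs for log2 ratios and Clopper-Pearson for shares of cells. All cover counting error only, not the spread between mice or between cells.

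**Figure D1:**
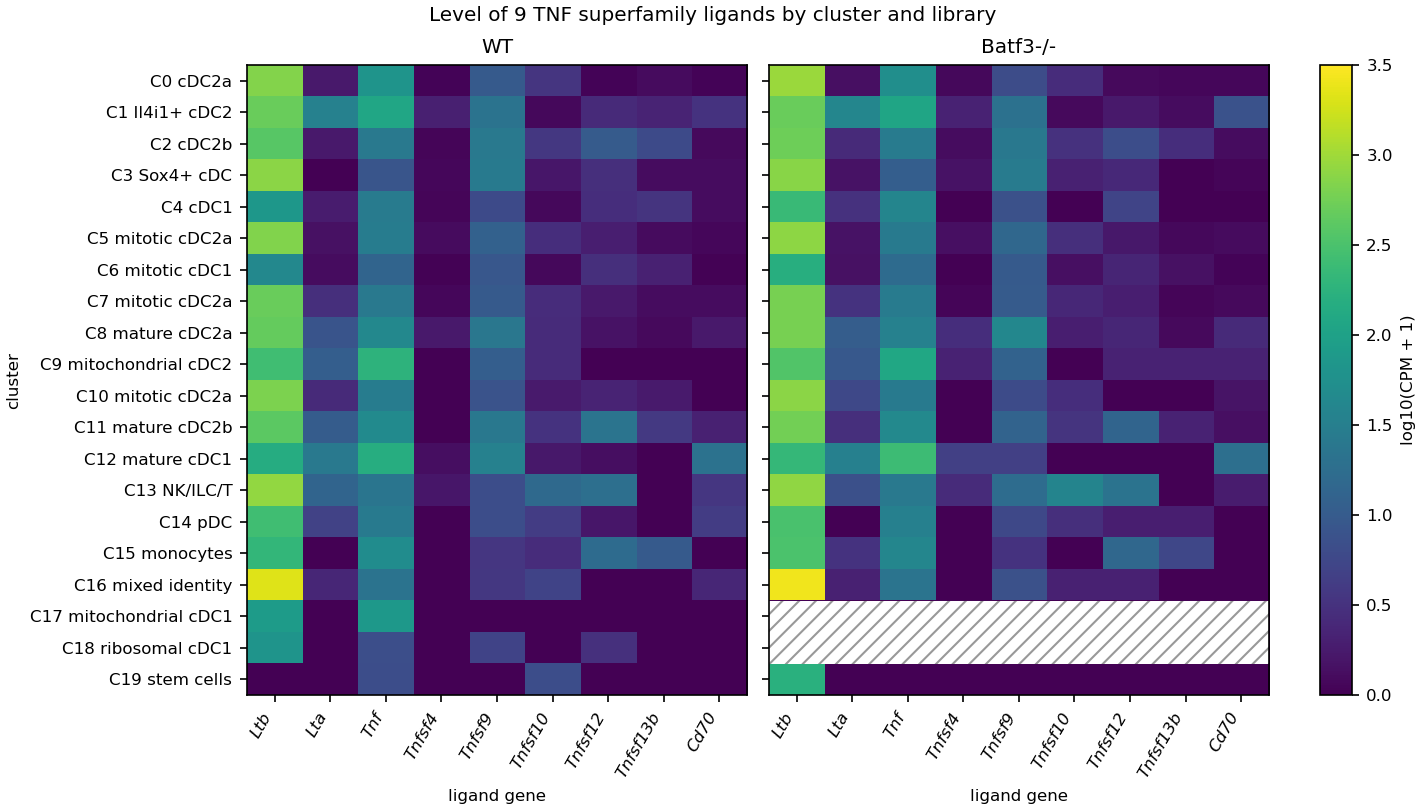
Colour gives log10(CPM + 1) of the 9 ligand genes (columns) in the 20 clusters (rows), with WT on the left and Batf3-/- on the right, and hatching marks clusters with under 20 cells. Ltb is bright in nearly all clusters and brightest in C16, while Cd70, Tnfsf10, Tnfsf12 and Tnfsf13b each stand out in 1 to 4 clusters.

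Ltb was broadly expressed and was highest outside the cDC1 clusters. With both libraries summed, C16, the cluster of mixed identity, led at 2406 CPM [2332–2481]. It was followed by the NK, ILC and T cells of C13 at 842 and the cDC2a of C0 at 825, whose intervals overlap. Next came the Sox4+ cDC of C3 and the mitotic cDC2a of C5, both at 762 and not separable, then C10 at 722, C7 at 559 and C8 at 534. The next clusters in order, C11, C1 and C2, lay between 482 and 507 CPM, each overlapping its neighbour. Lower levels followed in C9 (315), pDC (C14, 285), monocytes (C15, 240) and mature cDC1 (C12, 151). The cDC1 clusters C6, C17, C4 and C18 ranged from 71.5 to 94.5 CPM.

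In C16 Ltb was at 2133 CPM in 58 WT cells and 2622 CPM in 68 Batf3-/- cells. At the full depth of C16, with medians of 12821 and 13150 UMIs, every cell of both libraries had at least 1 Ltb UMI. There the T cell marker list summed to 1.35 and 0 CPM and the NK list to 2.70 and 2.15 CPM. Markers of dendritic cells summed to 6945 and 6845 CPM. The ILC markers Il7r and Gata3 were detected as well, at 103 and 70.8 CPM and at 43.3 and 46.1 CPM, and the pDC list summed to 636 and 852 CPM. C16 thus held Ltb with markers of several cell types, while T and NK markers were near 0 in both libraries.

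Among the cDC2, Ltb differed between genotypes by less than 2-fold in every cluster. It was at 704 CPM in WT and 947 CPM in Batf3-/- cells of C0 (log2 ratio 0.43). It was 390 and 531 CPM in the cDC2b of C2 (0.45). The Il4i1+ cDC2 of C1 had 500 and 497 CPM (−0.01), and C3 had 786 and 753 CPM (−0.06). Over the 18 clusters with a ratio, Ltb was higher in Batf3-/- cells in 15, each with an interval above 0, although C9 turned to −0.036 with cells of at least 2000 UMIs. C3 was the single cluster with an interval below 0, while C1 and C13 had intervals spanning 0.

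Among clusters with Ltb UMIs in both libraries, the ratios were largest in C6 and C4. In the mitotic cDC1 of C6, 797 WT cells had 41.7 CPM [38.5–45.01] and 727 Batf3-/- cells had 156 CPM [149–163], from 652 and 2098 UMIs. The libraries did not overlap within counting error, and the log2 ratio was 1.90 [1.77–2.03], a 3.74-fold difference. In the cDC1 of C4, 2202 WT cells had 71.3 CPM [68.5–74.2] and the 31 Batf3-/- cells 236 CPM [194–284] (log2 ratio 1.73 [1.44–2.00]). Both Batf3-/- levels remained under those of the cDC2a clusters of either library. Among genes with a ratio and UMIs in both libraries, only 108 of 10991 in C6 and 8 of 4570 in C4 had a higher ratio than Ltb. For background, 3.84% of genes with a ratio in C6 and 1.53% in C4 were at least 2-fold higher in Batf3-/- cells.

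The share of cells with an Ltb UMI followed the same order once every cell was thinned to 1000 UMIs. In C6 it was 3.26% [2.14–4.74] in WT and 15.1% [12.6–17.9] in Batf3-/- cells, at median depths of 19599 and 18019 UMIs before thinning. In C4 it was 5.72% and 25.8%. The low share of WT C6 serves as a reference for a cell type with little Ltb and may include free RNA. Against it, C0 had 47.2% and 58.3% of cells with a UMI, at median depths of 6648 and 7187. Before thinning, the shares were 27.1% and 68.2% in C6 and 94.99% and 97.7% in C0.

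Markers moved with Ltb in these clusters. In C6 the cDC1 markers Xcr1, Clec9a, Cadm1 and Tlr3 summed to 843 CPM in WT and 173 CPM in Batf3-/- cells, with 4 of 4 detected in both. The cDC2 markers Sirpa, Itgam, Cd209a and Clec10a summed to 30.7 and 191 CPM. In C4 the cDC1 list summed to 1239 and 667 CPM and the cDC2 list to 36.7 and 153 CPM, and the B cell marker Ms4a1 was at 27.8 and 74.4 CPM. The Batf3-/- cells of these clusters therefore held more cDC2 and fewer cDC1 transcripts than the WT cells that carry the same cluster number, and the part of this in the Ltb difference was not tested. In the mature cDC1 of C12, where Ltb was 146 and 213 CPM (0.55), the cDC1 list summed to 158 and 18.1 CPM with Tlr3 at 0 in Batf3-/- cells, the cDC2 list summed to 74.5 and 72.3 CPM, and Ms4a1 was at 48.9 and 188 CPM.

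Cell cycle phase and possible doublets also moved with Ltb in C6. Cells in G1 made up 1.63% of WT and 26.0% of Batf3-/- C6. Among the cells in S or G2M, Ltb was 40.2 CPM in WT and 128 CPM in Batf3-/- cells (log2 ratio 1.68 [1.54–1.81]). Among G1 cells, of which WT had 13, it was 154 and 267 CPM (0.79 [0.27–1.36]). The Batf3-/- level was thus higher in both, by less than 2-fold in G1, and in each library Ltb was higher in G1 than in S or G2M. With the cells in the top 5% of doublet scores of each library left out, an alternative chosen after seeing the data, Ltb in C6 was 21.6 and 147 CPM (2.77), from 732 and 704 cells, and in C4 43.5 and 221 CPM (2.34). Without these cells the WT levels were lower and the ratios larger.

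C19, labelled as stem cells, is the remaining cluster in which Ltb was more than 2-fold higher. None of the 29 WT cells had an Ltb UMI, and 3 counts there would be 16.96 CPM. The 36 Batf3-/- cells had 167 CPM, which is 9.86-fold that floor. The interval of the log2 ratio begins at 2.94 and has no upper limit. The 41 UMIs came from 6 cells, and 1 cell held 15 of them. Dendritic cell markers summed to 266 CPM in WT and 1370 CPM in Batf3-/- cells of C19, and their part in the result was not tested. In C19, 6.7% of genes with a ratio were at least 2-fold higher.

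**Figure D2:**
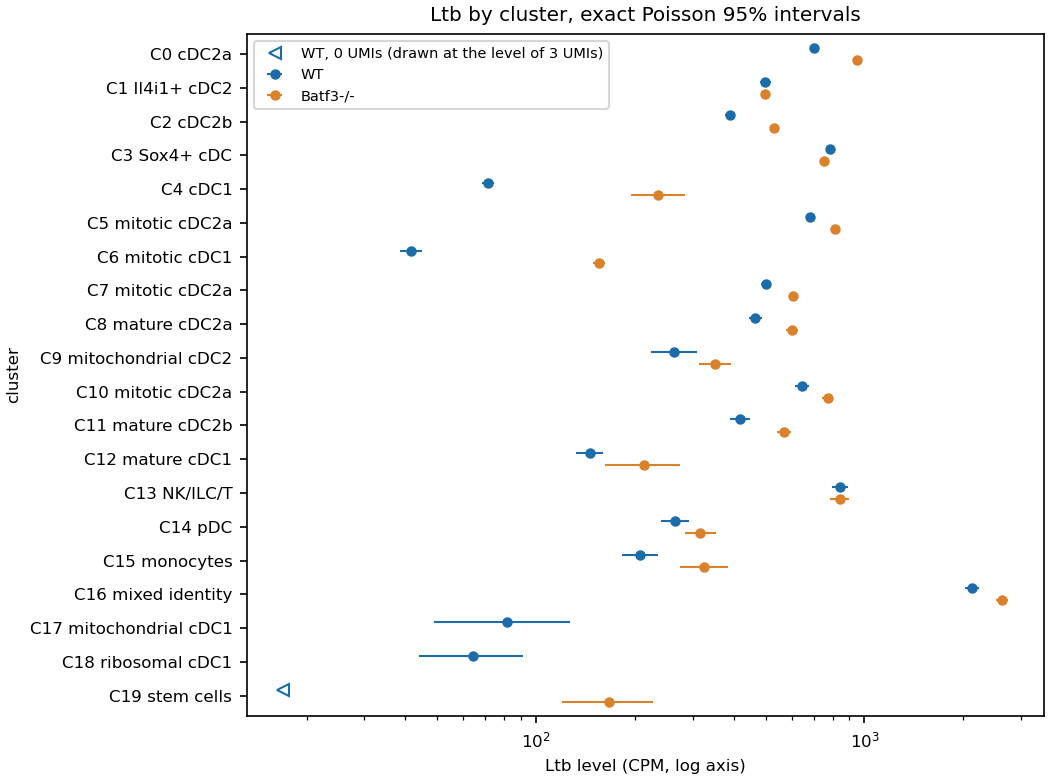
Points give Ltb in CPM on a log axis for each cluster with at least 20 cells of a library, in WT (blue) and Batf3-/- (orange) with exact Poisson 95% intervals, and the open triangle marks WT C19, with 0 UMIs, at the level of 3 UMIs. C16 lies above 2000 CPM in both libraries, and among clusters drawn for both libraries the gap is widest in C4, C6 and C19.

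Over all cells Ltb was 372 CPM in WT and 648 CPM in Batf3-/- cells (log2 ratio 0.80). With each Batf3-/- cluster weighted as in WT, an alternative chosen after seeing the data, it was 515 CPM and the ratio 0.46. The difference over all cells therefore combined levels within clusters with the numbers of cells in each, of which C4 held 2202 in WT and 31 in Batf3-/- cells.

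Lta, the partner of Ltb, had a much narrower pattern. Il4i1+ cDC2 (C1) had 33.6 CPM [28.7–39.1] in WT and 39.9 CPM [36.6–43.4] in Batf3-/- cells. The mature cDC1 of C12 had 24.9 and 32.5 CPM, the latter from 9 UMIs, and C13 had 12.3 and 6.08 CPM. C8 and C9 had between 7.24 and 10.1 CPM in both libraries, and C11 9.49 and 1.95 CPM. The clusters richest in Ltb among dendritic cells held little Lta, with 0.733 and 0.411 CPM in C0 and 0 and 0.462 CPM in C3. The order of clusters thus differed between the partners. In C1, where Lta was highest, the maturation markers Ccr7, Fscn1, Cd83, Cd40, Il4i1 and Relb summed to 4606 and 5031 CPM.

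In C2 the Lta ratio was past 2-fold, with 0.724 CPM in WT and 1.63 CPM in Batf3-/- cells. The log2 ratio of 1.17 [−0.15 to 2.75] spanned 0, and 16 of the 25 Batf3-/- UMIs lay in 1 cell. In C13 it was −1.01 [−2.51 to 0.30], which also spans 0. At least 2-fold higher genes made up 0.856% of those with a ratio in C2, and lower genes 1.89% in C13. All 18 Lta UMIs of Batf3-/- C10 came from 1 cell.

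Tnf was highest in mature cDC1, in mitochondrial cDC2 and in C1. C12 had 148 CPM [135–163] in WT and 253 CPM [197–320] in Batf3-/- cells (log2 ratio 0.77 [0.39–1.14]). C9, whose cells had median depths of only 1467 and 1487 UMIs, had 185 and 122 CPM (−0.60 [−1.003 to −0.204]). In C9 the cDC1 list summed to 75.6 and 22.0 CPM and the cDC2 list to 286 and 385 CPM, and their part was not tested. C1 had 115 CPM in both libraries (−0.01). The B cell marker Ms4a1 was at 48.9 and 188 CPM in C12, and its part in the Tnf difference there was not tested. C3 was lowest among the larger cDC clusters, with 7.45 and 10.0 CPM, and C6 had 12.4 and 15.7 CPM. In C0 Tnf was 62.9 CPM in WT and 53.5 CPM in Batf3-/- cells (−0.23 [−0.35 to −0.12]), opposite in sign to Ltb in the same cells. None of the 17 clusters with a Tnf ratio was past 2-fold.

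Tnf UMIs were concentrated in few cells. In C1 the top 10% of cells held 76.1% of the unthinned Tnf UMIs in WT and 75.2% in Batf3-/- cells. With cells thinned to 2000 UMIs, the variance over the mean (Fano factor) was 3.05 and 3.22, against about 1 for counting alone. For Ltb in the same cluster these shares were 36.6% and 39.8%, with Fano factors of 2.06 and 2.21. Of 721 WT C1 cells, 183 had a Tnf UMI and 535 an Ltb UMI, so the shares also reflect the lower level of Tnf. Cells with Lta, also at 2000 UMIs, more often had Tnf, with intervals that do not overlap in either library. In C1 42.5% of WT cells with an Lta UMI (17 of 40) had a Tnf UMI, against 11.0% of those without, and 44.2% (50 of 113) against 11.2% in Batf3-/- cells.

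Ltb and Lta did not share cells in this way. In C1 an Lta UMI was found in 4.46% of WT cells with Ltb and in 6.60% of those without, and in 2.62% and 9.18% of Batf3-/- cells, and the intervals were apart in the latter library only. Tnf was found in 10.1% of WT C1 cells with Ltb and 15.04% without, with overlapping intervals. In Batf3-/- cells of C1 it was found in 10.3% [8.28–12.5] and 15.7% [13.5–18.2], and these intervals were apart. In C6 the order was the opposite, with Tnf in 7.27% of WT cells with Ltb and 2.16% without. In Batf3-/- cells of C6 the shares were 6.08% and 2.38%, and the intervals overlapped in both libraries. In C0, 8.71% of WT cells with Ltb and 8.09% of those without had Tnf, and the Batf3-/- shares were 8.22% and 7.65%. Within 1 cluster these shares describe cells of the same library and are no replicated comparison.

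**Figure D3:**
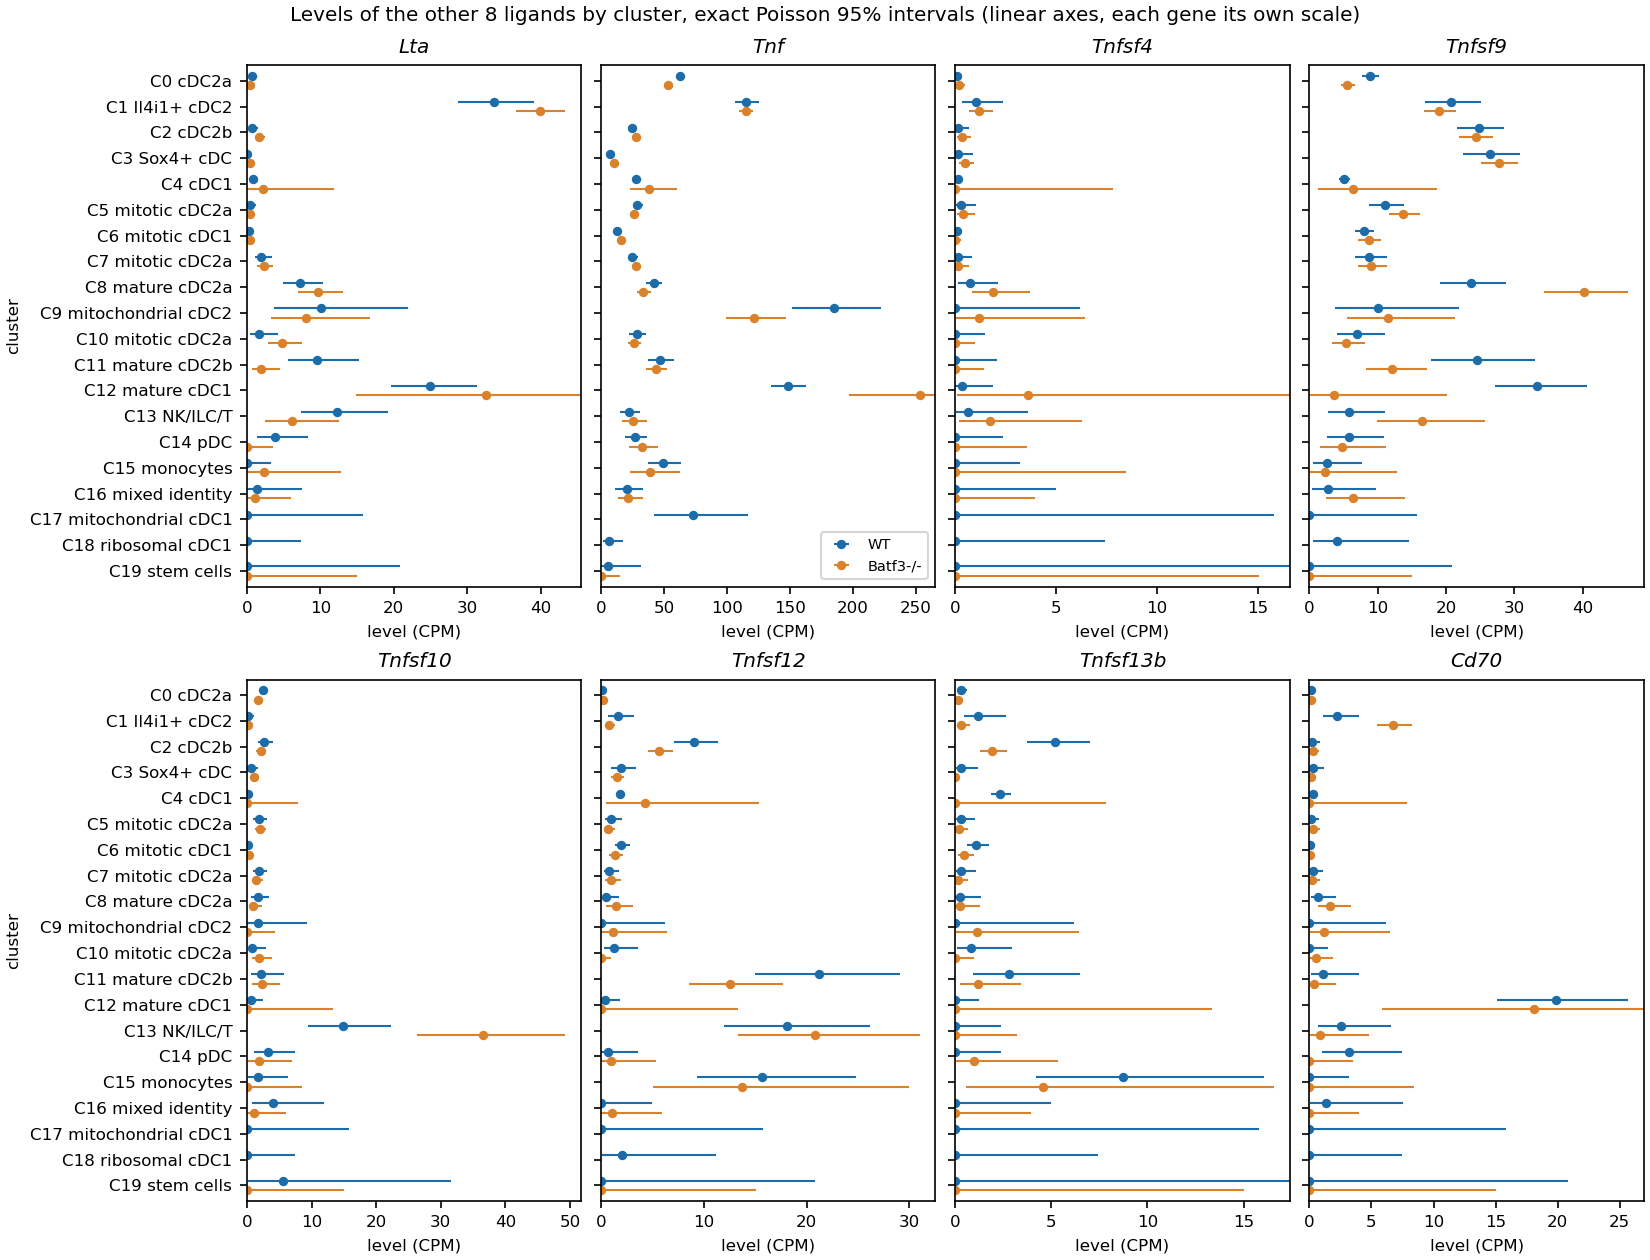
Points give CPM on linear axes, scaled separately for each of the other 8 ligand genes, by cluster in WT (blue) and Batf3-/- (orange) with exact Poisson 95% intervals, some of which run past the right edge. Lta is highest in C1 and C12, Tnf in C12, C9 and C1, Tnfsf10 in C13 and Cd70 in C12.

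Of the costimulatory ligands, Tnfsf9 was the most widely detected. Mature cDC2a (C8) had 23.6 CPM [19.2–28.8] in WT and 40.1 CPM [34.3–46.6] in Batf3-/- cells (log2 ratio 0.76 [0.40–1.14]). Mature cDC1 had 33.4 CPM in WT from 99 UMIs and 3.62 CPM in Batf3-/- cells from 1 UMI. C1, C2 and C3 lay between 19.03 and 27.8 CPM in both libraries, and their genotype intervals spanned 0. C4 and C6 were at 5.09 to 8.69 CPM. Tnfsf9 was thus higher in C8 and in C1 to C3 than in the cDC1 clusters other than C12.

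Among clusters with a Tnfsf9 ratio, the genotypes differed most in C11 and C13. In the mature cDC2b of C11 it was 24.6 CPM in WT and 12.1 CPM in Batf3-/- cells (log2 ratio −1.02 [−1.73 to −0.32]), where 1.54% of genes with a ratio were at least 2-fold lower. Neutrophil markers in C11 summed to 64.2 CPM in WT, with Ly6g at 0, and to 0 in Batf3-/- cells, the cDC1 list summed to 108 and 61.0 CPM, and their part was not tested. In C13 it was 5.81 and 16.5 CPM (1.505 [0.29–2.83]), where 1.72% were at least 2-fold higher. The C13 value rests on 9 and 19 UMIs, of which 8 and 12 came from cells labelled DC, at 14.2 [6.13–28.0] and 26.9 CPM [13.9–47.1]. In C13 the cDC2 list summed to 148 and 305 CPM, the cDC1 list to 107 and 11.3 CPM with Cadm1 at 0 in Batf3-/- cells, and the mature DC list to 347 and 638 CPM, and their part was not tested. Without the top 5% of doublet scores, or without the cell with most Tnfsf9 UMIs, too few UMIs were left in C13 for a ratio, and in C11 these settings gave −0.97 and −0.83 and the mean of per-cell CPM −0.36, all under 2-fold. In C0 it was 8.89 and 5.58 CPM (−0.67 [−1.01 to −0.34]). In C3, where Tnfsf9 and Ltb were both well detected, Tnfsf9 was found in 2.77% of WT cells with Ltb and 8.94% without, and in 3.48% and 8.41% of Batf3-/- cells.

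Cd70 was highest in C12 in both libraries, followed with the libraries summed by C1. C12 had 19.9 CPM in WT and 18.1 CPM in Batf3-/- cells, from 59 and 5 UMIs. C1 had 2.21 CPM [1.10–3.96] in WT and 6.71 CPM [5.41–8.23] in Batf3-/- cells, from 11 UMIs in 9 cells and 92 UMIs in 41 cells (log2 ratio 1.60 [0.69–2.65]). The intervals of the 2 libraries in C1 did not overlap. Of 10171 genes with a ratio and UMIs in both libraries of C1, 20 had a higher ratio. For background, 1.08% of all genes with a ratio there were at least 2-fold higher. The pDC of C14 had 3.20 CPM in the WT library and 0 in the other, and C13 2.58 CPM and 0.868 CPM. In WT these exceed C1, with overlapping intervals, and rest on 5 and 4 UMIs.

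Tnfsf4 was close to the limit of detection. With the libraries summed, its 71 UMIs gave the highest levels in C8, at 0.724 and 1.88 CPM, and C1, at 1.01 and 1.17 CPM, with 1 UMI in C12 of each library. No Tnfsf4 ratio within a cluster reached the minimum of expected UMIs. Over all cells it was 0.180 CPM in WT from 22 UMIs and 0.428 CPM in Batf3-/- cells from 49 UMIs (log2 ratio 1.25 [0.50–2.05]), and 0.89 with clusters weighted as in WT.

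Tnfsf10, encoding TRAIL, was highest in the lymphoid cluster. C13 had 14.8 CPM [9.41–22.3] in WT and 36.5 CPM [26.3–49.3] in Batf3-/- cells (log2 ratio 1.30 [0.53–2.10]). From the mean of per-cell CPM the ratio was 0.81 and among G1 cells 0.88, both under 2-fold. Every other cluster was at or below 4.06 CPM among those with a Batf3-/- level, apart from a single UMI in WT C19. The cDC2a of C0 had 2.43 and 1.78 CPM and C4 had 0.176 CPM in WT. Within C13, cells labelled ILC had 35.7 CPM [17.8–63.8] in WT (45 cells) and 88.8 CPM [58.5–129] in Batf3-/- cells (41 cells), and these intervals overlap. C13 held 241 WT and 146 Batf3-/- cells, of which 56 and 19 were labelled T cells. The part of this mix in the C13 ratio was not tested.

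C13 is a mixture, and the deposited SingleR labels separate its ligands. With both libraries summed, Ltb was 1445 CPM [1351–1544] in 86 ILC-labelled cells, 1400 CPM [1195–1629] in 29 NKT cells, 959 CPM [854–1074] in 75 T cells, 623 CPM [576–674] in 79 cells labelled DC and 295 CPM [242–356] in 82 NK cells. The ILC and NKT intervals overlap, and the others are apart. Lta was 31.0 CPM in ILC from 19 UMIs and 33.5 CPM [9.13–85.8] in NKT from 4 UMIs, with at most 3.17 CPM in the other labels, and the NKT interval overlaps those of T and NK cells. Tnfsf10 was 62.1 CPM [43.9–85.2] in ILC, and Tnfsf12 was 65.0 CPM [41.6–96.7] in NK cells and 34.3 CPM in ILC. The Tnfsf12 intervals of NK cells and ILC overlap. ILC thus had Ltb, Lta and Tnfsf10 as a label, and NK cells the lowest Ltb. T cell markers summed to 921 CPM in WT C13 and 589 CPM in Batf3-/- C13, with 3 of the 5 listed genes in the files, and NK markers to 3064 and 2901 CPM.

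**Figure D4:**
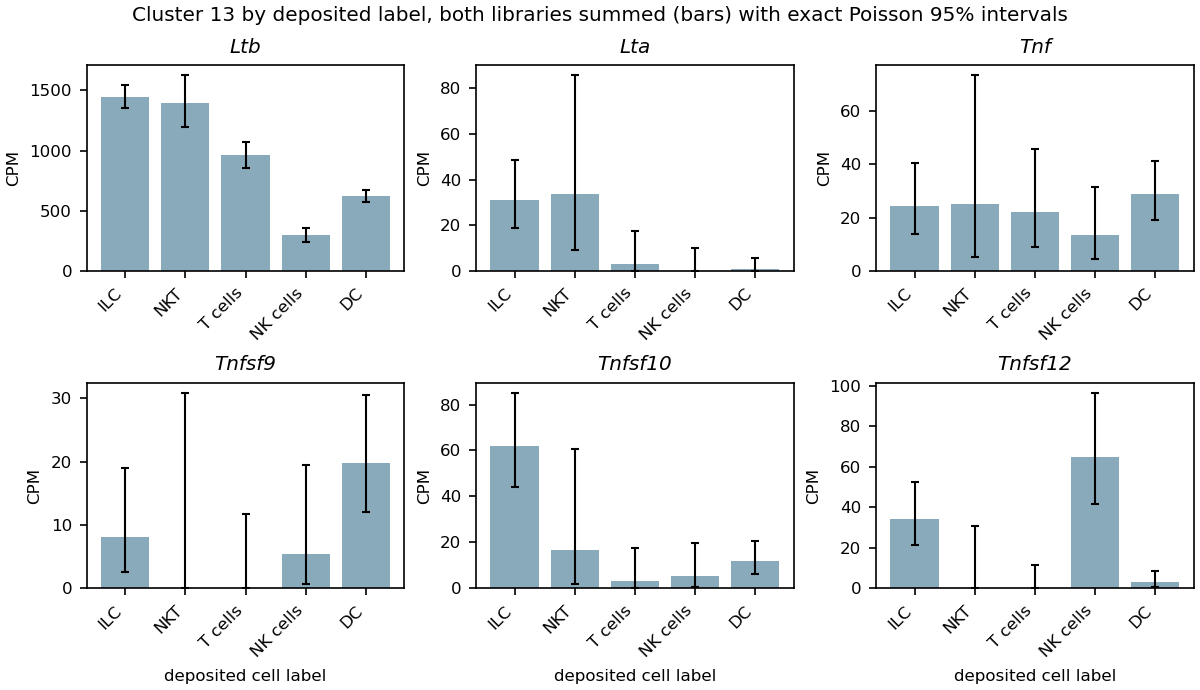
Bars give CPM of 6 ligand genes in C13 by deposited cell label, both libraries summed, on linear axes from 0 with exact Poisson 95% intervals. Ltb is at 1445 CPM in ILC and 295 CPM in NK cells, Tnfsf10 is highest in ILC and Tnfsf12 in NK cells.

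Tnfsf12, encoding TWEAK, was highest in C13, C11 and C15, whose intervals overlap with the libraries summed. Mature cDC2b (C11) had 21.2 CPM in WT and 12.5 CPM in Batf3-/- cells (log2 ratio −0.76 [−1.49 to −0.05]), monocytes (C15) 15.7 and 13.8 CPM, and C13 18.1 and 20.8 CPM. In C2 it was 9.05 and 5.68 CPM (−0.67 [−1.14 to −0.21]). By label in C2 it was 15.6 and 11.4 CPM in monocytes and 4.93 and 3.25 CPM in DC, with overlapping intervals in each. Monocytes were 384 of 942 WT and 480 of 1520 Batf3-/- cells of C2, and the part of this mix was not tested. C0 had 0.0917 and 0.229 CPM, so cDC2a held almost none, and pDC had 1 UMI in each library. Within C11, with both libraries summed, cells labelled macrophages had 54.9 CPM, monocytes 28.0 CPM and DC 8.18 CPM. In WT and Batf3-/- cells these were 50.6 and 58.1, 39.8 and 15.1, and 9.57 and 7.35 CPM in that order, with overlapping intervals. Monocytes were 49 of 188 WT and 47 of 251 Batf3-/- cells of C11, and the part of this mix was not tested. Monocyte markers (Lyz2, Ly6c2, Csf1r, Ccr2) summed to 6302 CPM in WT and 5601 CPM in Batf3-/- cells of C11 and to 3504 and 3059 CPM in C2. Neutrophil markers summed to 64.1 and 1.11 CPM in C2 and moved in C11 as given above, and the part of either list in the lower Tnfsf12 was not tested.

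Tnfsf13b, encoding BAFF, was highest in monocytes and cDC2b and was lower in Batf3-/- cells in both clusters with a ratio. C15 had 8.72 and 4.59 CPM, from 10 and 2 UMIs. In C2 it was 5.19 CPM [3.75–6.99] in WT and 1.89 CPM [1.27–2.72] in Batf3-/- cells (log2 ratio −1.46 [−2.19 to −0.74]), where 0.78% of genes with a ratio were at least 2-fold lower. The C2 intervals did not overlap, and the order was the same in cells labelled DC, with 4.74 and 1.49 CPM, and in cells labelled monocytes, with 5.63 and 2.85 CPM. By label, the intervals were apart in DC but overlapped in monocytes, at 3.34–8.90 CPM in WT and 1.52–4.87 CPM in Batf3-/- cells. In C6 it was 1.09 and 0.446 CPM (−1.29 [−2.92 to 0.12]), where 4.34% of genes were at least 2-fold lower. In C4 it was 2.34 CPM from 80 WT UMIs, against 0 of 31 Batf3-/- cells. For those 31 cells 3 counts would be 6.37 CPM, so a lower level there was not detectable. Neutrophil markers in C2 summed to 64.1 CPM in WT and 1.11 CPM in Batf3-/- cells, and their part in the C2 difference was not tested.

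Over the 9 genes, 65 gene and cluster pairs had a ratio. Of these, 38 were higher and 27 lower in Batf3-/- cells, and 11 (16.9%) were past 2-fold, 7 higher and 4 lower, against 3.16% of all gene and cluster pairs. That share covers genes of every level above the same minimum and was not matched to the ligands' counts, here or for the lists below. The intervals of 8 of the 11 were clear of 0. The other 3 were Lta in C2, Lta in C13 and Tnfsf13b in C6. Fewer pairs were past 2-fold among G1 cells or without the cell with most UMIs of the ligand, as counted at the end. In C6 the median log2 ratio of the 5 ligands compared was 0.12, beside 0.00 for all genes, and in C4 that of 2 ligands was 1.09 beside 0.06. Median ratios in the other clusters of at least 4 ligands ran from −0.45 in C0 to 0.39 in C8. Since ligands with low counts seldom reached the minimum, these counts are not a sample of all 9 genes. The genes were also listed with earlier results of these data known.

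**Figure D5:**
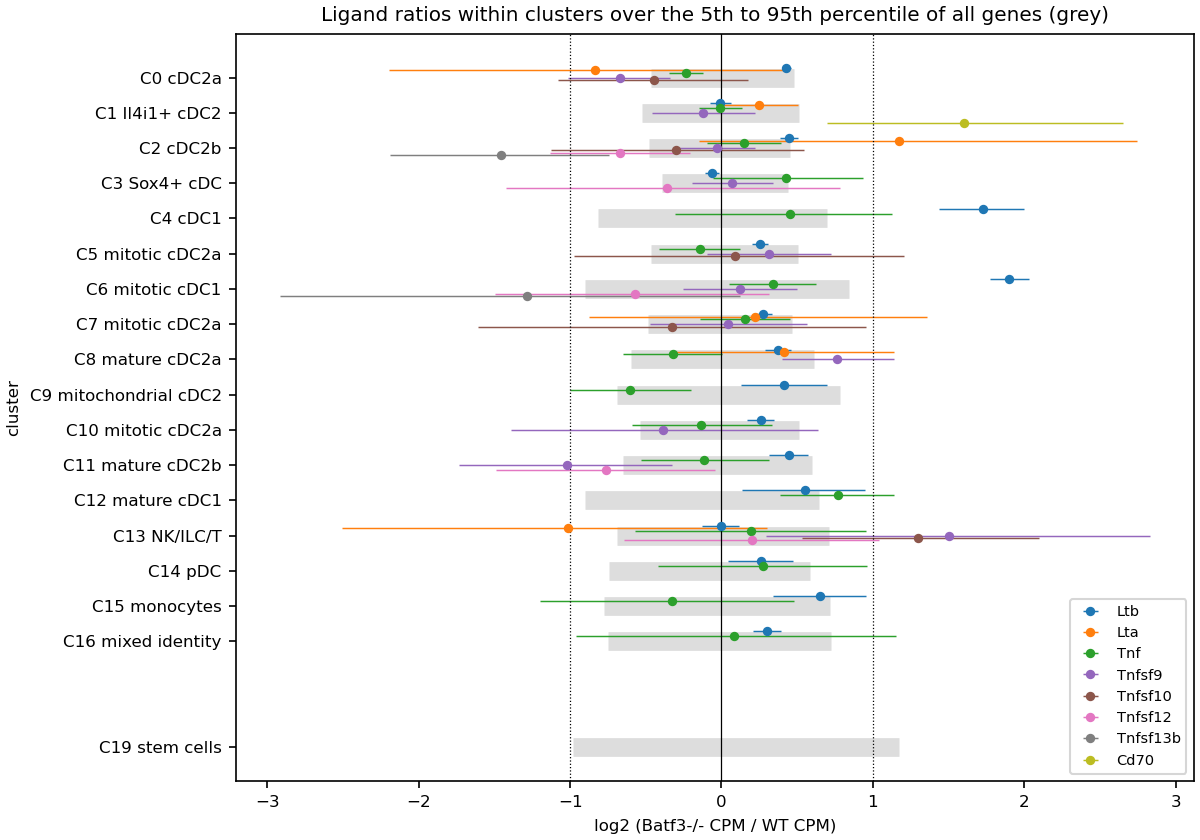
Points give the log2 ratio of Batf3-/- to WT CPM of each ligand with enough UMIs, by cluster, with 95% intervals for counting error, grey bars the 5th to 95th percentile of all genes, and dotted lines 2-fold. Ltb in C4 and C6 lies to the right of the grey bars, while Ltb in C19 has 0 WT UMIs and is not drawn.

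The genes whose levels most resembled each ligand were sought over 34 combinations of cluster and library with at least 50 cells, as Pearson correlation of log2(CPM + 1) among genes of at least 10 CPM. The points share libraries and cells that cluster together, so r is a description. For Ltb these were Cd7 (0.93), Ifi27 (0.87) and Dexi (0.86). For Lta they were Fas (0.84), Pcgf5 (0.83) and Ccr7 (0.82), and for Tnf Gfpt1 (0.89), Mxd1 (0.87) and Wnk1 (0.87). Tnfsf9 was most like Reep3 (0.77), Mthfs (0.72) and Gm45716 (0.69), Tnfsf4 like Gm45716 (0.71), Mmd (0.65) and 4930523C07Rik (0.65), and Cd70 like Tmem39a (0.79), Rnf115 (0.76) and Rasa2 (0.76). For Tnfsf10 they were Rhoh (0.78), Gzma (0.78) and Ms4a4b (0.77), for Tnfsf12 Ccr2 (0.74), Selenop (0.74) and Lgals3bp (0.74), and for Tnfsf13b Lyz2 (0.80), Ccl6 (0.79) and S100a9 (0.78).

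Receptors of these ligands were also measured. Ltbr, the receptor for lymphotoxin-α1β2, was highest in mitotic cDC2a (C10) at 23.9 CPM [20.2–28.1] with both libraries summed, overlapping C16 at 22.1 CPM [15.6–30.5], and Tnfrsf1b, a TNF receptor, in monocytes at 280 CPM, followed by C12 at 172 CPM. OX40 (Tnfrsf4) was at 412 CPM in C12, and 4-1BB (Tnfrsf9) at 64.6 CPM in C16 and 39.2 CPM in C13. CD27, the receptor of CD70, was at 102 CPM in C13, and the BAFF receptor family gene Tnfrsf13b at 202 CPM in pDC. These are levels of different genes, counted as 3′ UMIs, and were not compared with those of the ligands.

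Of 9 other TNF superfamily ligands listed, 8 were in the files used, and 7 of their 29 pairs with a ratio were past 2-fold (24.1%, against 3.16% of all gene and cluster pairs), all higher in Batf3-/- cells. In C6 these were Tnfsf8, encoding CD30 ligand, at 2.69 and 18.6 CPM (log2 ratio 2.79 [2.31–3.30]), Tnfsf15, encoding TL1A, at 0.511 and 2.97 CPM (2.54), and Tnfsf14, encoding LIGHT, at 1.92 and 4.08 CPM (1.09), where 3.84% of genes were at least 2-fold higher. All 3 with a ratio in C6 were thus higher, as Ltb was. This list too was chosen with earlier results of these data known. In C8, where 1.64% of genes were at least 2-fold higher and 1.17% lower, Tnfsf8 was 4.58 and 11.3 CPM and Tnfsf15 2.65 and 7.98 CPM. Tnfsf15 was also higher in C2, at 2.41 and 6.92 CPM (0.856% of genes higher), and in C0, at 0.504 and 1.51 CPM, where 1.17% of genes were at least 2-fold higher.

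The 25 receptor genes had 215 pairs with a ratio, of which 8 were at least 2-fold higher and 4 lower (5.58%, against the same 3.16%). The shares of genes past 2-fold in C4, C6 and C13 are those given above for the ligands. In C6 Tnfrsf13b, encoding TACI, was 12.3 CPM in WT and 51.2 CPM in Batf3-/- cells (log2 ratio 2.05), Tnfrsf13c, encoding the BAFF receptor, 3.26 and 10.9 CPM (1.74) and Tnfrsf4 1.73 and 0.668 CPM (−1.37). In C14 Tnfrsf4 was 32.7 and 7.67 CPM (−2.09), where 2.72% of genes were at least 2-fold lower. The mature DC list in C14 summed to 441 and 230 CPM, and its part was not tested. In C4 Tnfrsf21 was 27.2 and 55.2 CPM (1.02). Cd40 was higher in C13, at 16.8 and 37.3 CPM, and in C15, at 25.3 and 55.0 CPM, where 1.85% of genes were higher. In C15 the neutrophil list summed to 9199 and 19923 CPM and the monocyte list to 13018 and 19457 CPM, and their part, like that of the C13 markers above, was not tested. The other receptors past 2-fold were Tnfrsf14 in C1 (−1.26, with 0.796% of genes lower), Tnfrsf9 in C7 (1.052, with 0.886% higher), Tnfrsf13c in C8 (−1.04), Tnfrsf18 in C9 (1.24, with 2.22% higher) and Tnfrsf23 in C10 (1.10, with 0.889% higher), and the intervals of Tnfrsf9 in C7, Tnfrsf13c in C8 and Tnfrsf18 in C9 spanned 0. Receptors past 2-fold therefore lay in both directions.

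The 12 TNF receptor adaptor genes had 5 of 180 pairs past 2-fold (2.78%), 2 higher and 3 lower. In C12 Map3k14, encoding the kinase NIK, was 151 CPM in WT and 72.3 CPM in Batf3-/- cells (log2 ratio −1.07 [−1.79 to −0.42]) and Traf6 38.1 and 18.1 CPM, where 4.26% of genes were at least 2-fold lower. Traf5 in C14 was lower (−1.74), and Birc2 in C15 (1.11) and Traf1 in C19 (1.19) were higher, and the intervals of Traf6 in C12 and Traf1 in C19 spanned 0. Of 8 genes for ligand shedding and mRNA control, 4 of 129 pairs were past 2-fold (3.1%), namely Rhbdf2 in C6 (1.18), Zfp36 (1.96) and Zfp36l1 (2.06) in C19, all higher, and Rc3h1 in C15 (−1.13), where 2.95% of genes were lower. Both shares are close to the 3.16% of all gene and cluster pairs.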

How the data were processed

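Droplet 3′ libraries of sorted cells were sequenced for transcripts and antibody tags. Per the labels and the study's methods, the authors demultiplexed with bcl2fastq 2.2.0, counted UMIs with Cell Ranger on GRCm38 (mm10), evened the depth of the libraries by aggregation, and filtered and clustered cells in Seurat 3.0.5. The deposited cells have 501 to 4996 genes. The deposited raw transcript tables hold counts, as whole UMIs per gene and cell, and only these were used for levels, with the authors' clusters, phases and SingleR labels. The normalized tables and antibody tags were not used.

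UMIs were summed per cluster and library and divided by all UMIs of those cells, per 1000000 (CPM). With 1 library per genotype no p-value was computed; 2-fold served as a rule of size. Ratios needed at least 10 expected UMIs and 20 cells in each library. A level of 0 was read against 3 counts. Shares of cells used cells thinned to 1000 UMIs, leaving out 28 WT cells and 42 of Batf3-/-. Interval coverage was tested on simulated independent Poisson counts, so that test does not cover UMIs concentrated in few cells, as described for Tnf. Scrublet in scanpy at an expected rate of 0.1 marked 0.5% or more of the WT cells but only 1 Batf3-/- cell, so its calls were not used and the top 5% of scores were left out as an alternative; doublets were otherwise kept.

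All 9 ligands are named. Of the other lists, genes past 2-fold in a cluster are named, at most 4 a list and comparison, with the highest cluster of a ligand's receptor and, for each ligand, the 3 genes with the highest r. The members and lists were chosen with earlier results of these data known. Alternatives were other denominators, depths, phases, labels, folds and pseudocounts. Some marker genes are not reported here. Positions are from GENCODE M21 and promoters from RefSeq. Tools were scanpy 1.11.5, pandas 2.3.3, scipy 1.17.1 and numpy 2.4.6 in Python 3.11.15.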

Additional observations from a re-analysis of the deposited data

Results flagged for a closer look

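Lta moved in opposite directions in 2 clusters past 2-fold, with a log2 ratio of Batf3-/- to WT of 1.17 in C2 and −1.01 in C13. Both intervals span 0, and the difference between the clusters was not tested. Tnfsf9 had a log2 ratio of −1.02 in C11 and 1.505 in C13, with both intervals clear of 0. The C11 value was under 2-fold in 6 of the 7 other settings, from −0.36 to −0.991, and past it with cells of at least 2000 UMIs (−1.12). The C13 ratio could not be formed with top doublet scores or the cell with most UMIs left out. This difference was not tested either, since each genotype has 1 library.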

How the results depend on the processing

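Of 415 ratios recomputed under other settings, 408 stayed inside the interval reported, 6 moved outside it and 1 changed sign, Ltb in C9, at −0.036 with cells of at least 2000 UMIs. Some of the 415 could not move. The setting of cells labelled DC kept every cell of C13, C15 and C19, and that of 2000 UMIs kept every cell of C6. Ratios that could no longer be formed or had no finite value were left out of this count. The settings leaving out top doublet scores or the cell with most UMIs, and those using WT cluster weights, were chosen after seeing the data. With the top 5% of doublet scores out, the Ltb log2 ratio was 2.34 in C4 and 2.77 in C6, and from the mean of per-cell CPM it was 2.12 in C6. At WT cluster weights the ratios over all cells changed sign for Tnfsf12 (0.13) and Tnfsf9 (−0.031). The 11 pairs past 2-fold became 23 of 93 pairs with at least 3 expected UMIs and 19 at a fold of 1.5. They became 3 among G1 cells and 6 without the cell with most UMIs, where 44 and 57 finite ratios were left. The 6 were Ltb in C4, C6 and C19, Tnfsf10 in C13, Tnfsf13b in C2 and Cd70 in C1. The share of all genes past the fold was not computed under these settings. The share of cells with an Ltb UMI over all cells, 30.4% in WT and 42.9% in Batf3-/- cells at 1000 UMIs, was 46.3% and 62.2% at 2000 UMIs and 70.7% and 83.6% without thinning. With a pseudocount of 10, 15 of the 27 genes named as most like a ligand were the same. The highest cluster became C9 for Tnf among G1 cells, C1 for Tnfsf4 without its top cell and C12 for Tnfsf9 among cells labelled DC. The G1 setting holds no C6 ratio because WT C6 has 13 such cells, under the minimum of 20, and Scrublet's own threshold was not run as planned because it marked 1 Batf3-/- cell. No paired analysis was possible because each genotype has 1 library. Depth limits Tnfsf4, Tnfsf13b and Cd70 most.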
